A study of Mus musculus with 18 samples.

Results

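The genes described here encode the core of the basement membrane that lies outside the laminin layer: the 6 chains of collagen IV (*Col4a1* to *Col4a6*), the nidogens (*Nid1* and *Nid2*) and perlecan (*Hspg2*). They were chosen by symbol, and all 9 were found among the 38924 Ensembl genes of the count table, each with 1 row. Their RNA was measured in mouse fibroblasts of 3 organs, the heart (HF), the kidney (KF) and the tail (TF). All donors were described as Rosa mT/mG males aged 10 weeks on the C57BL/6 background, which carry a membrane TdTomato reporter. Their fibroblasts had grown in culture for 10 days. The RNA of 1 transplanted kidney library goes against the male label, as given below. The transplanted groups (HFs, KFs and TFs) were soaked into gelatin foam, placed under the kidney capsule of C57BL6/J mice aged 10 to 11 weeks, and sorted after 3 days as live CD45-;TdTomato+ cells. The cultured groups (HFc, KFc and TFc) were the corresponding cells replated and kept in vitro. The study's methods do not state for how long. Each of the 6 groups had 3 libraries. The study describes the replicates as biological, but whether each came from a donor animal of its own is not stated in the sources used here, and the p-values measure the spread between these libraries. In bulk RNA, fewer cells of a type and less RNA per cell cannot be told apart.

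A basement membrane is a thin sheet of matrix built on a laminin polymer and a collagen IV network. Collagen IV chains assemble inside the cell as trimers. The chains encoded by *Col4a1* and *Col4a2* form the network found in almost every tissue, those of *Col4a3*, *Col4a4* and *Col4a5* form the network of the mature glomerular filter, and that of *Col4a6* joins the *Col4a5* chain in skin, smooth muscle and some epithelia. Nidogens bind both laminin and collagen IV and link the layers, and perlecan is a large heparan sulfate proteoglycan that holds growth factors and water in the sheet. Fibroblasts secrete many of these proteins, which are deposited beside epithelia, vessels and muscle.

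The collagen IV genes lie in the genome as 3 pairs, each transcribed outward in opposite directions from neighbouring start sites (GRCm38, GENCODE release 21). *Col4a1* (ENSMUSG00000031502) spans chr8:11198423-11312826 on the minus strand and *Col4a2* (ENSMUSG00000031503) chr8:11312805-11449287 on the plus strand, so that the pair overlap by 22 bases at their first exons. *Col4a3* (ENSMUSG00000079465) spans chr1:82586921-82722059 on the plus strand and *Col4a4* (ENSMUSG00000067158) chr1:82448423-82586849 on the minus strand, with 72 bases between the start sites. *Col4a5* (ENSMUSG00000031274) spans chrX:141475385-141689234 on the plus strand and *Col4a6* (ENSMUSG00000031273) chrX:141165403-141474076 on the minus strand, 1309 bases apart. The other members stand alone. *Nid1* (ENSMUSG00000005397) is at chr13:13437551-13512269, *Nid2* (ENSMUSG00000021806) at chr14:19751265-19811787 and *Hspg2* (ENSMUSG00000028763) at chr4:137468769-137570630, all on the plus strand. Of the 9 genes, 8 overlap another annotated gene, among them *Nid2*, which overlaps *Rtraf* on the other strand. The study's methods state a strand setting for the counting, so reads could be divided between genes chiefly where a neighbour lies on the same strand, as for *Col4a1*, *Col4a3*, *Col4a5*, *Col4a6* and *Hspg2*.

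Because the members of each pair moved together in these libraries, the promoter windows of the pairs are shown. RefSeq windows (GRCm38.p6, 250 bases before to 50 bases after the start of transcription) were matched for 7 of the 9 genes. *Col4a3* and *Nid2* were not among them, but the *Col4a4* window holds both start sites of its pair. Each sequence is written 5′ to 3′ on the gene's own strand. Capitals mark matches, on either strand, to CCAAT (the CCAAT box), to GGGCGG (the GC box) or to TATAAA (the TATA box). The windows are chr8:11312777-11313076 for *Col4a1*, chr8:11312555-11312854 for *Col4a2*, chr1:82586800-82587099 for *Col4a4*, chrX:141475169-141475468 for *Col4a5* and chrX:141474027-141474326 for *Col4a6*.
Col4a1: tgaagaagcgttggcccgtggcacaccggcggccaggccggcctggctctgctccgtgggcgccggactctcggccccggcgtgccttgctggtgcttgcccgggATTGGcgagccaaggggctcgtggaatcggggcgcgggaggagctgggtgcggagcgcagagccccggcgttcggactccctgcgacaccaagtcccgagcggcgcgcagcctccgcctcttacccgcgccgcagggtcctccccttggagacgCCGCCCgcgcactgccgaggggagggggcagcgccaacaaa
Col4a2: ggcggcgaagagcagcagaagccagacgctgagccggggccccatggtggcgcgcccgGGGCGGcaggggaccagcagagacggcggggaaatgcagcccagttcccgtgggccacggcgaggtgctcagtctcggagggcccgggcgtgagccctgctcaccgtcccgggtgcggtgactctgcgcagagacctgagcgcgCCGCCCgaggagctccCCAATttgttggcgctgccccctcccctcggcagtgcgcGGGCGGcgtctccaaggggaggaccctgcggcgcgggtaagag
Col4a4: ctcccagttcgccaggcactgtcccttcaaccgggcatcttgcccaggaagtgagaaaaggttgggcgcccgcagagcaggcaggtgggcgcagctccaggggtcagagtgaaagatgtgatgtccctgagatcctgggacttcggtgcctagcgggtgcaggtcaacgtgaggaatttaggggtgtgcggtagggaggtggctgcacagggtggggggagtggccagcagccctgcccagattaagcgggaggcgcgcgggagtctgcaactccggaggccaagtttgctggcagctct
Col4a5: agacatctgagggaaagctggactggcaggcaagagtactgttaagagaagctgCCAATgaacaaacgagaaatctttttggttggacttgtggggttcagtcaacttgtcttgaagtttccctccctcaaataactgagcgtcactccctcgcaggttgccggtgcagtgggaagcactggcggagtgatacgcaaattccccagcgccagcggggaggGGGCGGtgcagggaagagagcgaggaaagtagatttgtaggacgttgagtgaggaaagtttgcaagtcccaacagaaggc
Col4a6: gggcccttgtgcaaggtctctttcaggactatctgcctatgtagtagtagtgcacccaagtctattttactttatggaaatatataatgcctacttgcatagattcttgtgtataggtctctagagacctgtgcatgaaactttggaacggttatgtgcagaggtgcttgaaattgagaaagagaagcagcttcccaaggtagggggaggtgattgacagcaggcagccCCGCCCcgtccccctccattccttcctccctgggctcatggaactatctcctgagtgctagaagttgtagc

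The *Col4a1* and *Col4a2* windows share 78 bases, read on opposite strands, and both had a CCAAT and a GC box match. *Col4a1* had 1 match of each, and *Col4a2* had 1 CCAAT match and 3 GC box matches. The *Col4a5* window had 1 of each, the *Col4a6* window 1 GC box match and no CCAAT, and the *Col4a4* window neither. None of these windows held TATAAA. Of all 32851 promoter windows of this length in the table, 37.4% held CCAAT, 35.7% the GC box and 13.6% the TATA box, so these matches are common and are given as a description. The share of G and C bases was 74.0% for *Col4a1* and 73.7% for *Col4a2*, 63.3% for *Col4a4*, 52.7% for *Col4a5* and 48.3% for *Col4a6*.

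Library totals lay between 17927838 and 32245168 counts, and levels are given as CPM, counts put on a common library size by the TMM method. The detection floor of 3 counts, which covers counting error only, lay between 0.089 and 0.18 CPM. The fibroblast markers were high in every library, with 9 or 10 of the 10 listed above the floor. One library stood apart. In the library labelled KFs replicate 3, 4 Y-linked genes summed to 0.722 CPM, against 175 to 230 CPM in the other 17, and *Xist* was at 1490 CPM, against at most 0.404 CPM, which goes against the label of male donor cells. Its library name, Kidney-Fibros, lacks the replicate code that the other names carry. Its summed fibroblast markers were 19900 CPM, against 72200 and 95300 CPM in the other KFs libraries and 15900 to 16800 CPM in KFc. Its summed epithelial markers were 167 CPM, against 21.2 and 23.8 CPM in the other KFs libraries and 22.6 to 33.4 CPM in KFc, with all 10 listed above the floor. Values of KFs are therefore also given with this library left out where calls, folds or levels rest on them. It also widened the spread that all groups share in the fit, so its removal changed calls in comparisons it was not part of. HFs replicate 2 carried more RNA of proximal tubule genes than the others of its group (1140 CPM summed over 10 markers, against 79.6 and 140 CPM).

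The 2 most abundant collagen IV genes, *Col4a1* and *Col4a2*, were highest in heart fibroblasts, intermediate in kidney fibroblasts and lowest in tail fibroblasts. *Col4a1* was at 6630, 6590 and 6770 CPM in HFc and at 4680, 5010 and 5850 CPM in HFs. It was at 4200, 4050 and 3810 CPM in KFc and at 3250, 2650 and 2080 CPM in KFs. In the tail it was at 646, 599 and 647 CPM in TFc and at 1840, 1710 and 1660 CPM in TFs. No group overlapped its neighbour, in the order HFc, HFs, KFc, KFs, TFs and TFc. *Col4a2* followed with 3720, 3640 and 3870 CPM in HFc, 2830, 2710 and 2590 CPM in KFc, and 508, 471 and 490 CPM in TFc. After transplantation it was at 3100, 3630 and 3900 CPM in HFs, at 2100, 1650 and 1170 CPM in KFs, and at 1170, 1080 and 1070 CPM in TFs. Its order was the same, but HFc overlapped HFs and KFs met TFs at the value of KFs replicate 3.

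*Col4a5* and *Col4a6*, whose chains assemble together, showed the same order of organs, heart above kidney above tail. *Col4a5* was at 729, 761 and 732 CPM in HFc and at 403, 468 and 476 CPM in HFs. It was at 351, 344 and 350 CPM in KFc and at 145, 85.7 and 128 CPM in KFs. In the tail it was at 83.3, 79.7 and 78.8 CPM in TFc and at 32.6, 45.8 and 41.4 CPM in TFs. The 6 groups did not overlap, and the transplanted libraries lay below the cultured ones of every organ. *Col4a6* was the scarce partner, with 52.4, 50.3 and 55.9 CPM in HFc, 36.5, 43.6 and 45.9 CPM in HFs, and 19.6, 18.8 and 19.7 CPM in KFc. It reached 6.55, 2.76 and 8.78 CPM in KFs, 2.02, 1.53 and 1.62 CPM in TFc, and 0.749, 1.45 and 1.23 CPM in TFs. Its groups had the same order as those of *Col4a5* and did not overlap either.

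*Col4a3* and *Col4a4* had a different order and were at most at 46.8 CPM outside KFs replicate 3. *Col4a3* was at 41.3, 36.9 and 46.8 CPM in KFc, at 2.30, 2.50 and 2.26 CPM in HFc, and at 0.208, 0.0392 and 0 CPM in TFc (7, 1 and 0 counts). In KFs it was at 8.29 and 8.01 CPM in replicates 1 and 2 and at 328 CPM in replicate 3. It was at 6.07, 28.0 and 3.87 CPM in HFs and at 7.44, 3.00 and 3.61 CPM in TFs. Cultured kidney fibroblasts thus exceeded every other group except KFs, where the third library was far above the other two and those lay below all KFc libraries. *Col4a4* showed the same picture, with 24.5, 25.1 and 25.4 CPM in KFc, 3.13, 2.54 and 2.36 CPM in HFc, and 0.594, 0.196 and 0.395 CPM in TFc. It was at 8.04, 9.04 and 207 CPM in KFs, at 2.83, 17.1 and 5.54 CPM in HFs, and at 6.21, 2.27 and 3.94 CPM in TFs. The highest HFs library for both genes was replicate 2, the one with the most proximal tubule RNA, and the highest KFs library was replicate 3, the one with the most epithelial RNA. The part of these other cell types in the 2 genes was not tested.

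The nidogens and perlecan had other orders of groups. *Nid1*, the major nidogen of most tissues, was at 1260, 1230 and 1180 CPM in HFc, at 1080, 1060 and 1010 CPM in KFc, and at 462, 432 and 455 CPM in TFc. It was at 1040, 1080 and 1080 CPM in HFs, at 1480, 1220 and 762 CPM in KFs, and at 780, 744 and 798 CPM in TFs. The heart and kidney groups overlapped in the order of means, and TFc was below all others. *Nid2*, its relative, was at 129, 134 and 138 CPM in HFc and at 202, 284 and 332 CPM in HFs. It was at 178, 181 and 171 CPM in KFc and at 102, 57.6 and 11.2 CPM in KFs, the last in replicate 3. In the tail it was at 86.4, 81.7 and 91.1 CPM in TFc and at 343, 269 and 348 CPM in TFs. All transplanted heart and tail libraries were above their cultured groups, and all transplanted kidney libraries below theirs. *Hspg2* varied least, with 3400, 3330 and 3350 CPM in HFc, 2150, 2140 and 2000 CPM in KFc, and 2630, 2500 and 2540 CPM in TFc. It was at 3370, 3410 and 3120 CPM in HFs, at 2370, 2310 and 1320 CPM in KFs, and at 2710, 2550 and 2570 CPM in TFs. Cultured and transplanted libraries of 1 organ overlapped for *Hspg2* in all 3 organs.

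**Figure D1:**
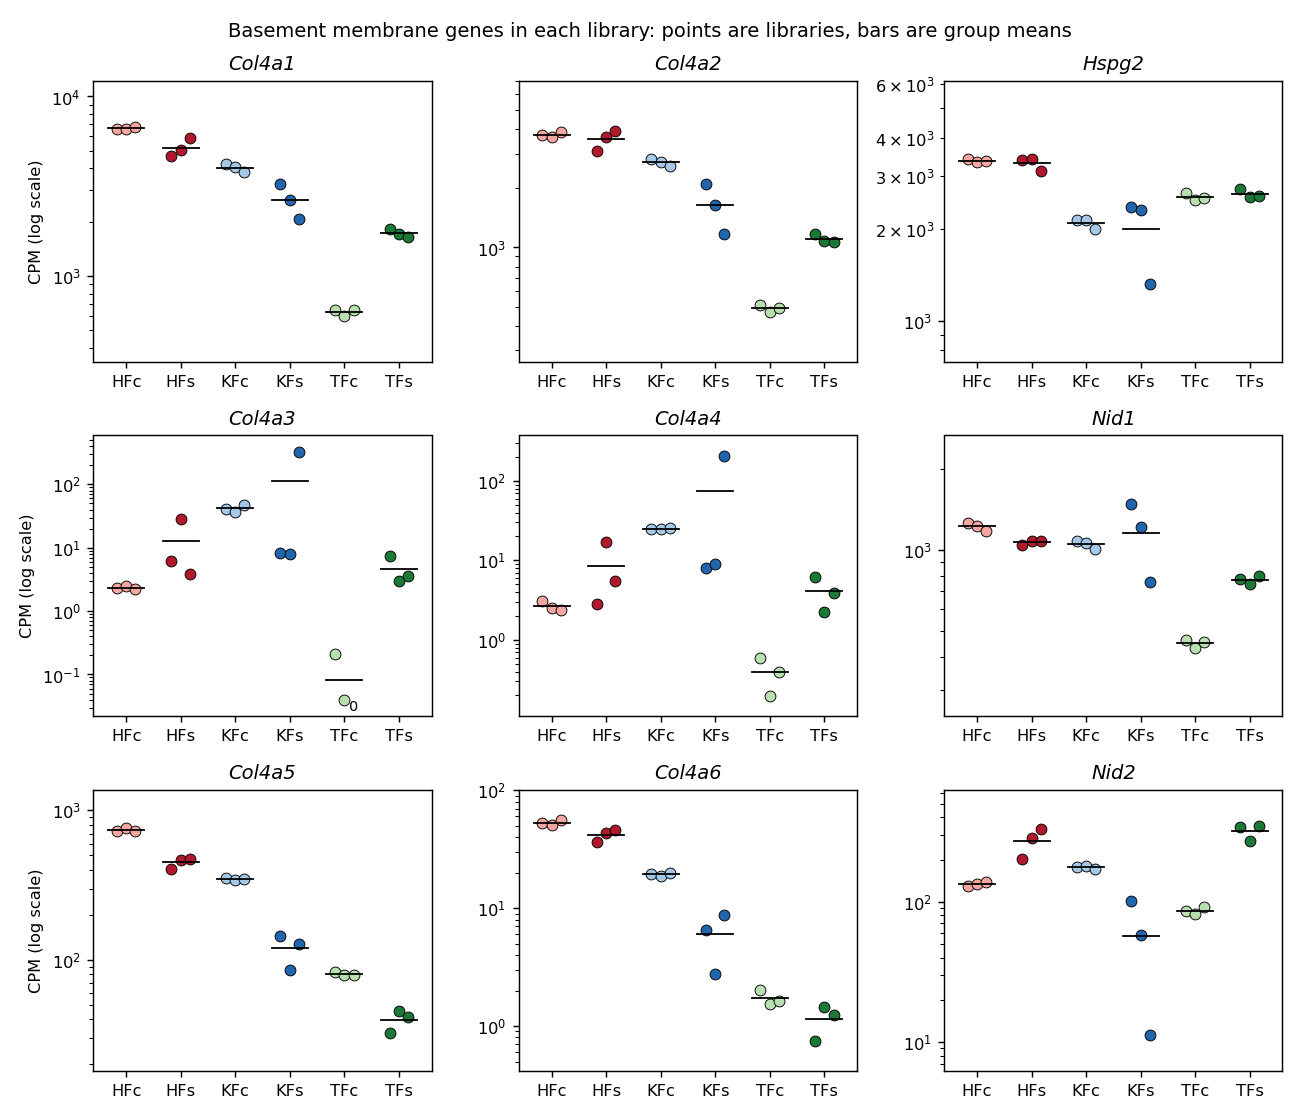
CPM of the 9 genes in each of the 18 libraries on log axes, by group (x axis), with 1 point per library and a bar at the group mean; the digit 0 marks a library without a count. Read from left to right, *Col4a1*, *Col4a2*, *Col4a5* and *Col4a6* step down from heart to tail, *Hspg2* stays within 1320 to 3410 CPM, and KFs replicate 3 is the high point of *Col4a3* and *Col4a4* and the low point of *Nid2*.

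To compare the genes with each other, CPM was divided by the exon length of each gene (CPM per kb). On this scale *Col4a1* was the most abundant member in 5 groups, with 893 ± 12.5 CPM per kb in HFc, 694 ± 80.9 in HFs, 538 ± 26.5 in KFc, 356 ± 78.5 in KFs and 232 ± 12.5 in TFs (mean ± SD, n = 3). With replicate 3 left out, the KFs mean of *Col4a1* was 395 CPM per kb (n = 2), ahead of *Col4a2* with 283, *Nid1* with 194 and *Hspg2* with 164 CPM per kb. TFc was the exception. There *Hspg2* led with 179 ± 4.61 CPM per kb, ahead of *Col4a1* with 84.5 ± 3.65 and *Col4a2* with 73.9 ± 2.78 CPM per kb. *Hspg2* made up 41.5% of the summed mean level of the 9 genes in TFc, against 23.9% in TFs, 11.0% in KFc and 11.7% in HFc. *Col4a1* made up 19.6% in TFc, 30.5% in TFs, 40.1% in KFc and 44.4% in HFc. The ratio of *Col4a1* to *Hspg2* per kb lay between 0.460 and 0.488 in the TFc libraries, between 1.24 and 1.30 in TFs, and between 2.19 and 3.87 in the heart and kidney libraries, so that cultured tail fibroblasts were the only group with more perlecan RNA than *Col4a1* RNA per kb.

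**Figure D2:**
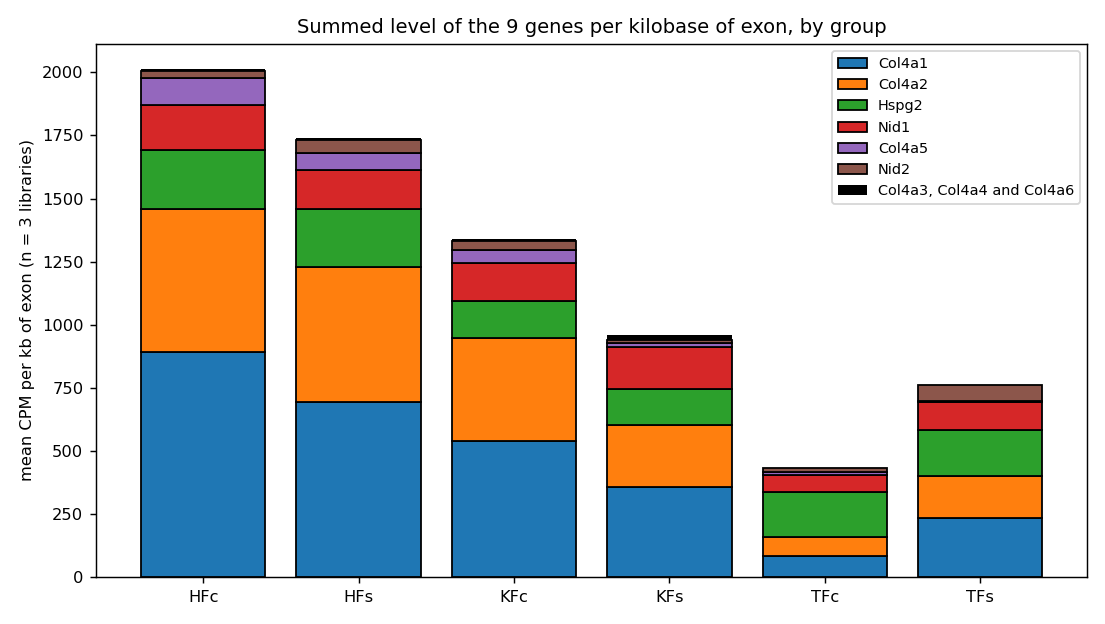
Stacked mean CPM per kb of exon (y axis, linear, n = 3 libraries) of the 9 genes in each of the 6 groups (x axis). *Col4a1* and *Col4a2* make up most of the heart and kidney bars, *Hspg2* is the largest part of the TFc bar (41.5%), and the KFs bar includes replicate 3.

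The ratio of *Nid1* to *Nid2* per kb moved with state. It was between 6.41 and 7.27 in HFc and between 2.43 and 3.85 in HFs, between 3.72 and 3.98 in TFc and between 1.69 and 2.06 in TFs. In the kidney it went the other way, from 4.38 to 4.51 in KFc to 10.8, 15.7 and 50.6 in KFs, the highest being replicate 3. The ratio of *Col4a1* to *Col4a2* stayed between 1.13 and 1.61 in all 18 libraries, and it was lowest in TFc (1.13 to 1.17) and highest in HFc (1.55 to 1.61). *Col4a5* exceeded *Col4a6* by 12.3 to 18 times in heart libraries, 17.3 to 36.9 times in kidney libraries and 37.4 to 61.8 times in tail libraries. Between genes these ratios depend on the annotated exon length, but between groups they do not.

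The transplant comparisons asked how each cell type changed under the kidney capsule relative to its cultured control. A gene was called when its adjusted p was under 0.05 and its log2 fold change was above 1 or below -1, by the quasi-likelihood test of edgeR, adjusted over the 16577 genes tested by the Benjamini-Hochberg method. All 9 members passed the filter on low counts. In TFs against TFc, *Col4a1*, *Col4a2*, *Col4a3* and *Nid2* rose and *Col4a5* fell, that is 4 of 9 higher and 1 of 9 lower, against 11.0% of all genes tested higher and 5.53% lower. The median log2 fold change of the 9 was 1.18.

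*Col4a1* rose 2.75-fold in the tail fibroblasts (log2 fold change 1.46 ± 0.14, SE, edgeR adjusted p = 1.42e-06) and *Col4a2* 2.26-fold (1.18 ± 0.16, adjusted p = 3.56e-05). *Nid2* rose 3.70-fold (1.89 ± 0.46, adjusted p = 0.00438). *Nid1* was 1.72-fold higher with an adjusted p of 0.00119, short of the fold limit (log2 fold change 0.78 ± 0.16). All TFs libraries were above all TFc libraries for these 4 genes, which encode the common collagen IV network and its linkers. The 2 groups were apart, in either direction, for 8 of the 9 members, and the share over all genes was not counted. *Col4a5* moved the other way, with 2.02-fold less RNA in TFs (log2 fold change -1.01 ± 0.15, adjusted p = 0.000116), and *Col4a6* had a log2 fold change of -0.58 ± 0.36 (adjusted p = 0.210). *Hspg2* had 0.03 ± 0.16 (adjusted p = 0.906). The call of *Col4a5* lay at the fold limit. It was lost without TFc replicate 1 or TFs replicate 1, and with DESeq2, with its size factors and in a fit of these 2 groups alone (log2 fold change -0.98 in each of these 3). *Col4a3* rose from at most 7 counts per TFc library (log2 fold change 5.52 ± 1.91, adjusted p = 0.0324), and this call was lost without any 1 of the TFc libraries or without TFs replicate 1 (adjusted p from 0.0697 to 0.0890). *Col4a4* had 3.31 ± 1.29 and an adjusted p of 0.0532, and 0.000441 without KFs replicate 3. Beside these results, the summed proximal tubule markers were between 126 and 331 CPM in TFs and between 19.5 and 21.8 CPM in TFc, with 10 of 10 called higher, and the distal nephron markers between 31.4 and 97.9 CPM and between 0.534 and 1.14 CPM, with 8 of 10 called higher. Of the podocyte markers 3 of 7 tested were called higher (245 to 299 CPM in TFs and 176 to 184 CPM in TFc). The leukocyte markers were lower, at 37.5 to 46.4 CPM in TFs and 188 to 216 CPM in TFc, with 7 of 10 called. The mural markers were at 111 to 126 CPM and 284 to 301 CPM, with 3 of 9 tested called lower and 1 higher. Of the fibroblast markers 5 of 10 were called higher and 1 lower (33600 to 40700 CPM in TFs and 18700 to 18900 CPM in TFc). The endothelial markers were at 45.0 to 49.8 CPM and 38.4 to 43.1 CPM, with 4 of 10 called higher, the erythroid markers at 2.68 to 9.54 CPM and at most 0.0297 CPM, with 5 of 6 tested called higher, and the epithelial markers at 3.32 to 11.6 CPM and 4.91 to 5.28 CPM, with 3 of 8 tested called higher and 1 lower. The part of these cell types in the result was not tested.

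With all libraries, every member called in KFs against KFc was lower, while *Col4a3*, *Col4a4* and *Nid1* had positive log2 fold changes. *Col4a5*, *Col4a6* and *Nid2* fell, 3 of 9 lower and 0 higher, against 7.99% of all genes lower and 14.7% higher, and the median of the 9 was -0.60. *Col4a5* had 2.92-fold less RNA (log2 fold change -1.54 ± 0.15, adjusted p = 1.31e-06), *Col4a6* 3.23-fold less (-1.69 ± 0.28, adjusted p = 0.000134) and *Nid2* 3.10-fold less (-1.63 ± 0.46, adjusted p = 0.00782). The *Nid2* call was lost in a fit of these 2 groups alone (-1.62, adjusted p = 0.111). *Col4a1* and *Col4a2* passed the adjusted p but not the fold limit, with -0.60 ± 0.14 (adjusted p = 0.00203) and -0.73 ± 0.16 (adjusted p = 0.00123). *Nid1* had 0.13 ± 0.16 and *Hspg2* -0.07 ± 0.16. Without KFs replicate 3, 5 members were called, all lower, against 10.3% of all genes lower and 12.9% higher in that fit. The 3 above remained, with log2 fold changes of -1.64, -2.12 and -1.19, and *Col4a3* and *Col4a4* were added. *Col4a1* then had -0.49 ± 0.10 (adjusted p = 0.00101), *Col4a2* -0.58 ± 0.11 (adjusted p = 0.000346), *Nid1* 0.32 ± 0.08 (adjusted p = 0.00341) and *Hspg2* 0.12 ± 0.07 (adjusted p = 0.166). Markers of other cell types moved in both directions in KFs. The summed mural cell markers were between 2190 and 2280 CPM in KFc and between 175 and 425 CPM in KFs, with 6 of the 9 tested of 10 called lower and 1, *Abcc9*, called higher. The summed leukocyte markers were between 469 and 506 CPM in KFc and between 37.7 and 139 CPM in KFs, with 8 of 10 called lower. Of the proximal tubule markers 8 of 10 were called higher, with sums of 103 to 112 CPM in KFc and 58.9 to 121 CPM in KFs, and of the distal nephron markers 6 of 10, with sums of 17.5 to 19.3 CPM and 24.7 to 80.4 CPM. Of the endothelial markers 5 of 10 were called higher and 1 lower (35.3 to 38.0 CPM and 26.5 to 49.8 CPM), and of the fibroblast markers 6 of 10 higher and 1 lower (15900 to 16800 CPM and 19900 to 95300 CPM). Called higher were also 2 of 7 podocyte, 1 of 8 epithelial and 1 of 6 erythroid markers tested. The part of these cell types in the result was not tested.

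*Col4a3* and *Col4a4* in the kidney fibroblasts are the case where 1 library decided the direction. With all libraries their log2 fold changes were 1.46 ± 1.02 (adjusted p = 0.251) and 1.58 ± 0.90 (adjusted p = 0.161). Without KFs replicate 3 they were -2.40 ± 0.60 (adjusted p = 0.00355) and -1.59 ± 0.51 (adjusted p = 0.0161), that is 5.26-fold and 3.01-fold less RNA than in KFc. In that library *Col4a3* was at 328 CPM beside epithelial markers of 167 CPM. The summed level of the markers listed for podocytes, the cells of the glomerular filter, was between 235 and 318 CPM in KFs and between 191 and 201 CPM in KFc. In KFs this sum was lowest, 235 CPM, in replicate 3. With all libraries, 2 of the 7 podocyte markers tested, *Nphs1* and *Podxl*, were called higher in KFs and 0 lower. Without KFs replicate 1, *Col4a4* was called in the upward direction (2.10, adjusted p = 0.0443).

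In HFs against HFc, 0 of the 9 members were called, against 18.3% of all genes higher and 9.33% lower, and their median log2 fold change was -0.08. At an unadjusted p under 0.05 there were 3, and DESeq2 called 1 of the 7 members to which it gave an adjusted p, *Nid2*. *Col4a5* had a log2 fold change of -0.72 ± 0.15 (adjusted p = 0.000835) and *Col4a1* of -0.36 ± 0.14 (adjusted p = 0.0328), both short of the fold limit. Their HFs libraries lay below all HFc libraries. The 2 groups were apart, in either direction, for 6 of the 9 members, and the share over all genes was not counted. *Col4a2* had -0.08 ± 0.15 (adjusted p = 0.680), *Col4a6* -0.33 ± 0.26 (adjusted p = 0.291), *Nid1* -0.19 ± 0.16 (adjusted p = 0.308) and *Hspg2* -0.03 ± 0.16 (adjusted p = 0.897). *Nid2* was 2.04-fold higher (1.03 ± 0.45, adjusted p = 0.0612). Without KFs replicate 3, 3 members were called higher in HFs, against 19.7% of all genes: *Nid2* (1.05 ± 0.18, adjusted p = 0.000113), *Col4a3* (2.45 ± 0.57, adjusted p = 0.00154) and *Col4a4* (1.69 ± 0.48, adjusted p = 0.00619). *Nid2* was also called without HFs replicate 1 (1.26, adjusted p = 0.0473). With all libraries *Col4a3* and *Col4a4* had 2.43 ± 1.17 and 1.67 ± 1.00, and without HFs replicate 2 they had 1.10 ± 1.23 and 0.72 ± 1.07. Beside these values, 10 of 10 proximal tubule markers (79.6 to 1140 CPM summed in HFs and 22.5 to 25.0 CPM in HFc), 10 of 10 distal nephron markers (25.1 to 155 CPM and 0.255 to 0.344 CPM) and 9 of 10 endothelial markers (62.0 to 73.0 CPM and 39.9 to 42.8 CPM) were called higher in HFs. Of those tested, 4 of 7 podocyte markers were called higher, although their sum was lower (544 to 615 CPM and 834 to 857 CPM), as were 5 of 6 erythroid markers (0.132 to 43.8 CPM and at most 0.0491 CPM) and 2 of 8 epithelial markers, with 1 lower. Of the mural markers 4 of 9 were called higher and 4 lower, and of the leukocyte markers 1 of 10 higher. Of the fibroblast markers 6 of 10 were called higher and 2 lower (75600 to 126000 CPM summed in HFs and 20300 to 21400 CPM in HFc). The part of these cell types in the result was not tested.

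**Figure D3:**
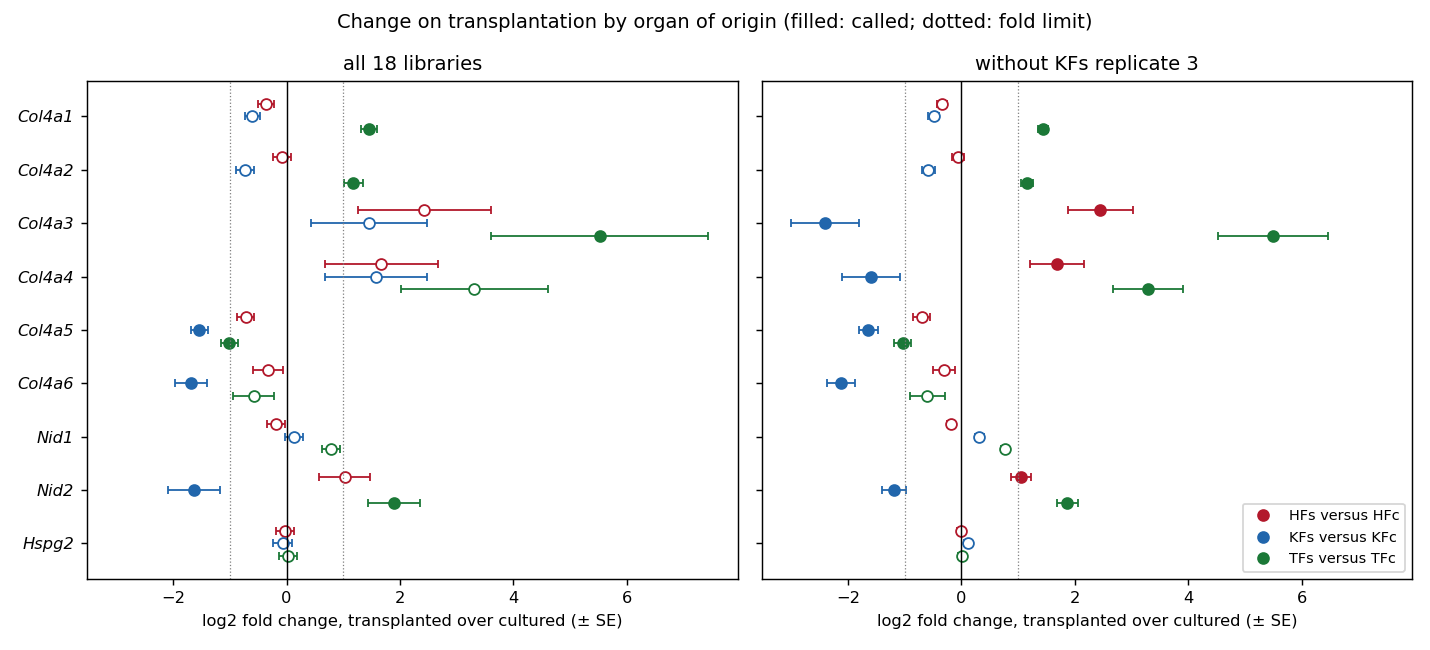
Log2 fold change of each gene in transplanted over cultured cells (x axis, ± SE) for the 3 organs, with all 18 libraries (left) and without KFs replicate 3 (right); filled points were called and dotted lines mark the fold limit of 1. *Hspg2* lies between -0.07 and 0.12 in both panels, *Col4a1* and *Col4a2* lie to the right of 0 in the tail alone, and the kidney points of *Col4a3* and *Col4a4* change sides between the panels.

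The difference between the responses was then tested itself, as an interaction term with the adjusted p under 0.05 as the call. The response of HF was lower than that of TF for *Col4a1* (-1.82 ± 0.19, adjusted p = 1.34e-05), *Col4a2* (-1.26 ± 0.22, adjusted p = 0.000905) and *Nid1* (-0.98 ± 0.22, adjusted p = 0.00572), 3 of 9 lower and 0 higher, against 12.7% and 10.1% of all genes. The response of KF was lower than that of TF for *Col4a1* (-2.05 ± 0.19, adjusted p = 1.46e-05), *Col4a2* (-1.90 ± 0.22, adjusted p = 9.17e-05) and *Nid2* (-3.52 ± 0.65, adjusted p = 0.00294), against 6.07% of all genes lower and 4.99% higher. These comparisons share the tail libraries. The common collagen IV pair thus responded differently in the tail than in either other organ. When KFs replicate 3 was left out, these calls remained and *Nid2* was added for HF against TF, while *Col4a3*, *Col4a4*, *Col4a6* and *Nid1* were added for KF against TF. All of these were lower, against 16.2% of all genes lower for HF against TF and 11.7% for KF against TF in that fit. The KF against TF differences were then -1.93 for *Col4a1*, -1.73 for *Col4a2* and -3.06 for *Nid2* (adjusted p from 3.33e-07 to 2.71e-06). With all libraries, 6 of 10 leukocyte and 3 of 10 endothelial markers were called higher for HF against TF and 0 lower. Of the mural markers 2 of 9 tested were higher and 1 lower. For KF against TF, 3 of 9 mural and 2 of 10 proximal tubule markers were lower and 0 higher. Of the endothelial markers 2 of 10 were lower and 1 higher. The part of these cell types in the result was not tested.

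The response of HF was higher than that of KF for *Col4a2* (0.65 ± 0.22, adjusted p = 0.0401), *Col4a5* (0.82 ± 0.21, adjusted p = 0.0105), *Col4a6* (1.36 ± 0.38, adjusted p = 0.0147) and *Nid2* (2.67 ± 0.64, adjusted p = 0.00638), 4 of 9 higher and 0 lower, against 10.7% of all genes higher and 15.5% lower. The call of *Col4a2* was lost when any 1 of 8 libraries was left out (adjusted p from 0.0601 to 0.0858), namely HFc replicates 1, 2 or 3, KFc replicates 1, 2 or 3 and HFs replicates 2 or 3. The log2 fold changes of *Col4a5* and *Col4a6* were more negative in the kidney than in the heart fibroblasts, and *Nid2* went in opposite directions in the libraries of the 2 organs. Without KFs replicate 3 the *Nid2* difference was 2.24 ± 0.28 (adjusted p = 2.94e-05), that of *Col4a2* 0.51 (adjusted p = 0.0112), that of *Col4a5* 0.93 (adjusted p = 0.00397) and that of *Col4a6* 1.81 (adjusted p = 0.000411), and 7 members were called, 6 higher and 1 lower, against 18% and 17.2% of all genes. The *Col4a2* call was also lost in a fit of only the groups compared (0.72, adjusted p = 0.0835). With all libraries, 7 of 10 leukocyte, 3 of 10 endothelial and 3 of 9 mural markers were called higher for HF against KF and 0 lower. Of the podocyte markers 2 of 7 tested were higher and 1 lower. The part of these cell types in the result was not tested.

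Between organs, where an adjusted p under 0.05 was the call, cultured heart fibroblasts exceeded cultured tail fibroblasts in 5 of 9 members and were lower in 0, against 20.9% and 21.0% of all genes. *Col4a1* was 10.6-fold higher (log2 fold change 3.40 ± 0.15, adjusted p = 1.32e-10), *Col4a2* 7.65-fold, *Col4a5* 9.19-fold, *Col4a6* 30.4-fold and *Nid1* 2.72-fold higher (adjusted p from 3.21e-06 to 1.32e-10 over these 5). *Hspg2* was 1.31-fold higher with an adjusted p of 0.0559, and the log2 fold change of *Nid2* was 0.63 ± 0.45 (adjusted p = 0.282). All 9 were called higher without KFs replicate 3, in a fit where 23.5% of all genes were higher and 25.1% lower. Cultured kidney fibroblasts exceeded the tail in 7 of 9 members, against 17.8% of all genes higher and 18.5% lower. *Col4a1* was 6.37-fold higher (2.67 ± 0.14, adjusted p = 5.41e-09), *Col4a2* 5.53-fold, *Col4a5* 4.32-fold, *Col4a6* 11.1-fold and *Nid1* 2.34-fold. *Col4a3* and *Col4a4* had log2 fold changes of 8.68 ± 1.76 (adjusted p = 0.00127) and 5.92 ± 1.25 (adjusted p = 0.00177), against a tail group with few counts. With KFs replicate 3 left out, 8 members were called higher, *Nid2* being added (1.06, adjusted p = 0.000197), and *Hspg2* was called lower in KFc (-0.26, adjusted p = 0.00258), as it also was with library sizes alone as the scaling (-0.35, adjusted p = 0.0387). In the fit without that library 22.5% of all genes were higher and 21.3% lower. Both comparisons share TFc. Among the markers of other cell types, 5 of 8 epithelial markers tested (22.6 to 33.4 CPM summed in KFc and 4.91 to 5.28 CPM in TFc), 7 of 9 mural markers (2190 to 2280 CPM and 284 to 301 CPM, with the other 2 lower) and 6 of 10 leukocyte markers (469 to 506 CPM and 188 to 216 CPM) were called higher in KFc than in TFc. In HFc against TFc no epithelial marker was called, 3 of 9 mural markers were higher and 4 lower, and 2 of 10 leukocyte markers were lower. Of the 7 podocyte markers tested there, 2 were higher and 2 lower. Podocyte sums were 834 to 857 CPM in HFc and 176 to 184 CPM in TFc. The part of these cell types in the result was not tested.

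Heart and kidney fibroblasts in culture differed in 7 members. *Col4a1* (1.66-fold), *Col4a2* (1.38-fold), *Col4a5* (2.13-fold), *Col4a6* (2.73-fold) and *Hspg2* (1.60-fold) were higher in HFc, and *Col4a3* (17.6-fold) and *Col4a4* (9.29-fold) were higher in KFc, against 15.1% of all genes higher in HFc and 14.0% lower. The adjusted p was 0.000821 for *Col4a1*, 0.00413 for *Hspg2*, 0.0166 for *Col4a3* and 0.0255 for *Col4a4*. That of *Col4a2* was 0.0331, and this call was lost without any 1 of the 6 libraries (adjusted p from 0.0642 to 0.106), with the size factors of DESeq2 (0.0532), with a mean of at least 10 counts (0.0538), after thinning to the smallest total (0.0558) and without a filter (0.102). Those of *Col4a3* and *Col4a4* were lost without any 1 of the HFc libraries, with adjusted p from 0.0574 to 0.0816, and stood without any 1 of the KFc libraries. The libraries of HFc and KFc did not overlap for any of the 9 members, so this does not set *Col4a3* and *Col4a4* apart. The share over all genes was not counted. *Nid2* was above HFc in every KFc library, with a log2 fold change of -0.41 ± 0.44 for HFc over KFc (adjusted p = 0.546). It was called in a fit of these 2 groups alone (-0.46, adjusted p = 1.48e-08). Markers called lower in HFc than in KFc were 4 of 8 epithelial (2.85 to 3.62 CPM summed in HFc), 9 of 10 leukocyte (99.4 to 114 CPM), 5 of 9 mural (259 to 289 CPM, with 1 higher) and 4 of 7 podocyte markers (834 to 857 CPM in HFc and 191 to 201 CPM in KFc, with 1 higher). Their part in the result was not tested.

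After transplantation the order of heart, kidney and tail was present for *Col4a1*, *Col4a2*, *Col4a5* and *Col4a6*, with smaller differences from the tail for *Col4a1* and *Col4a2* than in culture. In the fit without KFs replicate 3, the kidney difference from the tail was smaller for the other 2 as well. That of *Col4a5* went from 4.4-fold to 2.89-fold and that of *Col4a6* from 11.3-fold to 3.94-fold. The interaction in that fit was called for *Col4a6* (-1.52, adjusted p = 0.0143) and not for *Col4a5* (-0.61, adjusted p = 0.066). HFs exceeded TFs in 5 of 9 members and was lower in 0, against 10.3% of all genes higher and 12.7% lower. *Col4a1* was 2.99-fold higher (adjusted p = 7.88e-07), *Col4a2* 3.20-fold (adjusted p = 1.69e-06), *Col4a5* 11.2-fold (adjusted p = 1.64e-09), *Col4a6* 36.2-fold (adjusted p = 3.94e-08) and *Nid1* 1.38-fold (adjusted p = 0.0434). The *Nid1* call was lost without any 1 of the 6 libraries, with adjusted p from 0.0721 to 0.130, without a filter (0.0612) and with library size alone (0.147). Without KFs replicate 3, *Hspg2* was also called higher in HFs (0.35, adjusted p = 0.000326), which made 6 members. In that fit 14.7% of all genes were higher and 16.3% lower. A fit of these groups alone called *Hspg2* as well (0.38, adjusted p = 0.0399). The organ difference of *Col4a1* thus went from 10.6-fold in culture to 2.99-fold, which is the interaction given above, while that of *Col4a5* was 9.19-fold and 11.2-fold (interaction 0.29 ± 0.21, adjusted p = 0.359). Between HFs and TFs, 5 of 10 leukocyte markers were called higher in HFs (95.4 to 157 CPM summed, against 37.5 to 46.4 CPM), 3 of 9 mural markers higher and 1 lower, and no epithelial marker. Their part in the result was not tested.

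KFs exceeded TFs in 7 members and was lower in *Nid2*, against 15.3% of all genes higher and 13.8% lower. *Col4a1* was 1.54-fold higher (adjusted p = 0.00321), *Col4a2* 1.48-fold (adjusted p = 0.0123), *Nid1* 1.49-fold (adjusted p = 0.0126), *Col4a5* 2.99-fold (adjusted p = 3.67e-06) and *Col4a6* 5.16-fold (adjusted p = 8.97e-05), while *Nid2* had 5.62-fold less RNA in KFs (adjusted p = 0.00102). When replicate 3 was left out of KFs these 6 stayed called, with *Col4a1* 1.71-fold, *Col4a2* 1.70-fold, *Nid1* 1.75-fold, *Col4a5* 2.89-fold and *Col4a6* 3.94-fold higher and *Nid2* 4.01-fold lower, against 18.3% of all genes higher and 16.8% lower. *Col4a3* and *Col4a4* were called with 4.63 ± 1.2 and 4.18 ± 1.03, and without KFs replicate 3 they had 0.82 ± 0.60 (adjusted p = 0.312) and 1.06 ± 0.51 (adjusted p = 0.121). The *Nid1* and *Col4a2* calls were lost without KFs replicate 1 (adjusted p 0.0597 and 0.0559), *Nid1* also without TFs replicate 2 (0.0503) and *Col4a2* also without TFs replicate 3 (0.0508). *Hspg2* was called lower in KFs with library size alone (-0.43, adjusted p = 0.0184). It was also called lower without KFs replicate 1 (-0.52, adjusted p = 0.0247) and without KFs replicate 2 (-0.5, adjusted p = 0.0435). Epithelial markers were called higher in KFs than in TFs for 6 of 8 tested (21.2 to 167 CPM summed, against 3.32 to 11.6 CPM) and mural markers for 6 of 9, with 1 lower (175 to 425 CPM, against 111 to 126 CPM), while 4 of 10 proximal tubule markers were lower (58.9 to 121 CPM, against 126 to 331 CPM). Their part in the result was not tested.

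HFs exceeded KFs in 6 members, against 14.2% of all genes higher and 19.0% lower. These were *Col4a1* (1.95-fold, adjusted p = 0.000103), *Col4a2* (2.16-fold, adjusted p = 9.26e-05), *Col4a5* (3.76-fold, adjusted p = 6.11e-07), *Col4a6* (7.01-fold, adjusted p = 4.85e-06), *Hspg2* (1.65-fold, adjusted p = 0.00272) and *Nid2* (4.79-fold, adjusted p = 0.00178). *Col4a3* and *Col4a4* were called lower (-3.17 ± 1.10 and -3.12 ± 0.97). These 2 calls were lost without HFs replicate 1 or 3 and in the fit blocked on replicate number (adjusted p = 0.174 for *Col4a3* and 0.0936 for *Col4a4*), and without KFs replicate 3 the values were 0.65 ± 0.58 (adjusted p = 0.400) and 0.02 ± 0.50 (adjusted p = 0.983). *Hspg2* without that library was 1.42-fold higher (adjusted p = 4.16e-05) and *Nid2* 3.45-fold higher (adjusted p = 1.31e-05), and *Nid1* was then called lower (-0.32, adjusted p = 0.00469). *Col4a1* was then 1.77-fold, *Col4a2* 1.91-fold, *Col4a5* 3.93-fold and *Col4a6* 9.25-fold higher in HFs, in a fit that called 18.1% of all genes higher and 20.7% lower. Among the 9 members, *Col4a5* and *Col4a6* alone stayed called in fits of only the groups compared, with all libraries, both for HFs against KFs and for KFs against TFs. For HFs against KFs the lost calls were *Col4a1* (adjusted p = 0.0733), *Col4a2* (0.0624), *Nid2* (0.102), *Hspg2* (0.145), *Col4a3* (0.263) and *Col4a4* (0.217). For KFs against TFs they were *Col4a1* (adjusted p = 0.144), *Col4a2* (0.197), *Nid1* (0.214), *Nid2* (0.0863), *Col4a3* (0.134) and *Col4a4* (0.124). In HFs, 5 of 8 epithelial and 4 of 9 mural markers were called lower than in KFs, with 1 mural marker higher, and 4 of 10 distal nephron and 2 of 10 proximal tubule markers were called higher. Their part in the result was not tested.

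The genes whose pattern was most like each member were read from the Pearson correlation of log2 CPM over the 18 libraries, which share groups and are not independent, so no p is given. Of 16576 other genes, the nearest to *Col4a1* was *Col4a2* (r = 0.994) and the nearest to *Col4a2* was *Col4a1*. In the same way *Col4a3* and *Col4a4* were each other's nearest gene (r = 0.979), and so were *Col4a5* and *Col4a6* (r = 0.983). Each collagen IV gene therefore had its head-to-head neighbour in first place. The next in order were *Celf2* and *Ak3* for *Col4a1* (0.962 and 0.961), *Gab2* and *Celf2* for *Col4a2* (both 0.969), *Pkia* and *Megf9* for *Col4a5* (0.981 and 0.976) and *Nbea* and *Sat1* for *Col4a6* (0.978 and 0.967). For *Col4a3* they were *Fgf1* and *Myo5b* (both 0.975), and for *Col4a4* *Exoc6* and *Pkhd1* (both 0.964), and KFs replicate 3 is the extreme point of both genes.

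Between pairs the likeness was lower. *Col4a1* and *Col4a5* had r = 0.811, *Col4a1* and *Col4a3* 0.561, and *Col4a5* and *Col4a3* 0.258. *Nid1* was nearest to *Gm15287*, ENSMUSG00000081448 and *Gata6* (0.967, 0.940 and 0.931), and *Col4a1* was seventh in its list (0.921). *Nid2* was nearest to *Abca6*, *1500015O10Rik* and *Camk2a* (0.906, 0.905 and 0.898), with 0.202 to *Nid1*. *Hspg2* was nearest to *Mxd4*, *Itgbl1* and *Srpx2* (0.950, 0.939 and 0.939), with 0.337 to *Col4a1* and -0.567 to *Col4a4*. The nidogens thus had unlike patterns, one near the common collagen IV pair and the other not.

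**Figure D4:**
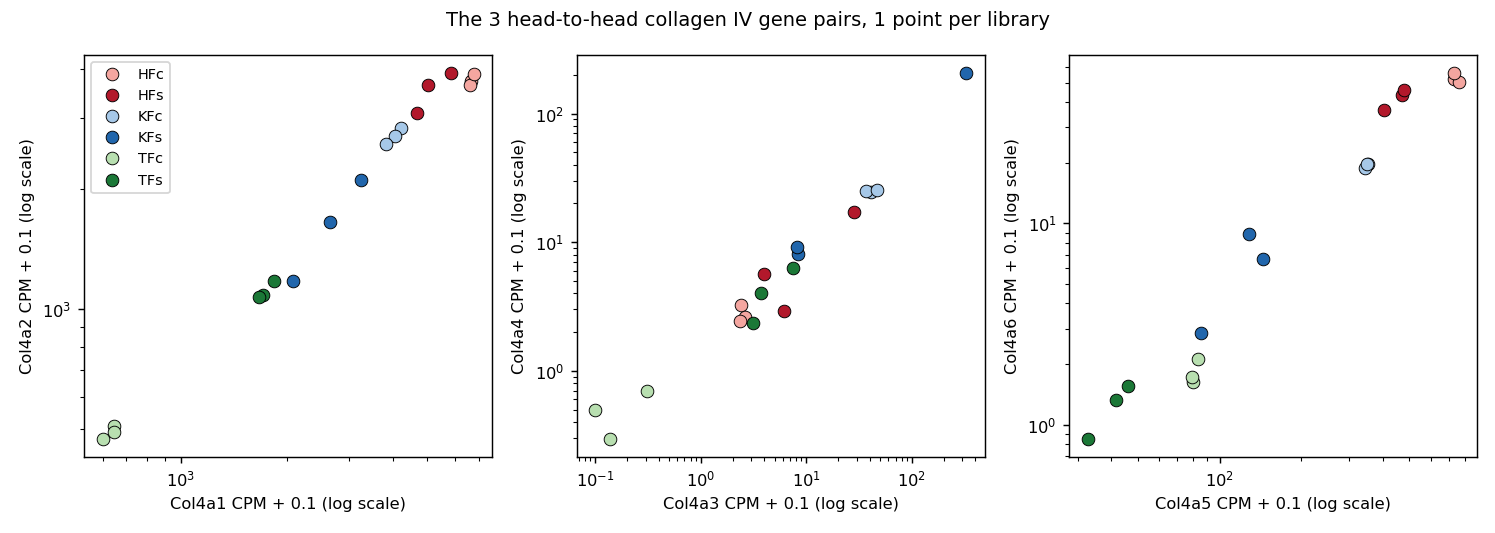
CPM plus 0.1 of the 2 genes of each head-to-head pair plotted against each other on log axes, 1 point per library coloured by group. The points of each pair lie near a line (r = 0.994, 0.979 and 0.983 on log2 CPM over 18 libraries), with KFs replicate 3 at the upper right of the *Col4a3* and *Col4a4* panel.

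The partners of these proteins were read from lists by role, with the 3 most abundant genes of each list named. Of all genes tested, 18.3% rose and 9.33% fell in HFs, 14.7% and 7.99% in KFs, and 11.0% and 5.53% in TFs. Laminin chains form the polymer that collagen IV is linked to. Of the 11 chains, 2 rose and 1 fell in HFs, 1 rose and 1 fell in KFs, and 3 rose and 0 fell in TFs, each against its culture and to be read against those shares. In TFs the risers were *Lama1*, *Lama4* and *Lamb1*, the first named after its values were seen. *Lama4*, the chain of mesenchymal and vessel laminins, rose from 127 ± 2.96 to 456 ± 13.9 CPM (log2 fold change 1.85 ± 0.26, adjusted p = 6e-05), and *Lamb1* from 222 ± 7.27 to 571 ± 64.3 CPM (1.36 ± 0.09, adjusted p = 6.11e-08). *Lama4* was also the riser in KFs (1.61 ± 0.26, adjusted p = 0.000113). It had 0.62 ± 0.25 in HFs (adjusted p = 0.0476), short of the fold limit. *Lamb1* had 0.74 ± 0.09 in KFs (adjusted p = 9.33e-06) and 0.11 ± 0.09 in HFs (adjusted p = 0.325), neither called. *Lamc1*, the chain that nidogens bind, had 0.77 ± 0.16 in TFs (adjusted p = 0.00124), -0.19 ± 0.16 in HFs (adjusted p = 0.306) and 0.03 ± 0.16 in KFs (adjusted p = 0.898). In culture *Lamc1* was at 1270 ± 18.6 CPM in HFc, 503 ± 16.4 CPM in KFc and 253 ± 2.26 CPM in TFc, the order of *Col4a1*.

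Of the 20 other basement membrane proteins, 8 rose and 3 fell in HFs (18.3% and 9.33% of all genes), 7 rose and 5 fell in KFs (14.7% and 7.99%), and 6 rose and 3 fell in TFs (11.0% and 5.53%). *Col15a1*, a collagen of the outer face of the sheet, rose in all 3 organs, from 44.2 ± 3.50 to 571 ± 241 CPM in the heart (3.69 ± 0.36, adjusted p = 7.2e-07), from 62.5 ± 5.65 to 644 ± 313 CPM in the kidney (3.37 ± 0.36, adjusted p = 2.22e-06) and from 29.1 ± 3.00 to 112 ± 21.2 CPM in the tail (1.95 ± 0.34, adjusted p = 0.000372). *Sparc*, which binds collagen IV and escorts it out of the cell, had log2 fold changes of 0.47, 0.27 and 0.04 in the heart, kidney and tail, and *Fbln2*, which binds nidogen, -0.04, -0.48 and 0.07, and none of these was called. In KFs, *Col15a1* rose while *Col4a5* and *Col4a6* fell, so the collagens of the sheet did not move alike.

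Collagen folding and export genes act on collagens inside the cell. Of the 18 tested of 19, 4 rose and 1 fell in HFs (18.3% and 9.33% of all genes), 5 rose and 0 fell in KFs (14.7% and 7.99%), and 3 rose and 1 fell in TFs (11.0% and 5.53%). *P4ha1*, a subunit of the prolyl hydroxylase, rose in KFs (1.27 ± 0.20, adjusted p = 8.39e-05), and had 0.91 ± 0.20 in TFs (adjusted p = 0.00177) and -0.08 ± 0.19 in HFs (adjusted p = 0.745). *Serpinh1*, the collagen chaperone, had 0.80 ± 0.23 in KFs (adjusted p = 0.00872), -0.40 in HFs and 0.41 in TFs, and *P4hb*, the other subunit, 0.86 ± 0.23 in KFs (adjusted p = 0.00657), 0.01 in HFs and 0.13 in TFs. In KFs, *P4ha1* was thus called higher beside lower *Col4a5*, *Col4a6* and *Nid2*. *Serpinh1* and *P4hb* were not called with all libraries, and their KFs and KFc libraries overlapped.

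Of the 20 crosslinking and turnover genes, 9 rose and 3 fell in HFs (18.3% and 9.33% of all genes), 7 rose and 4 fell in KFs (14.7% and 7.99%), and 7 rose and 1 fell in TFs (11.0% and 5.53%). *Pxdn*, the peroxidase that crosslinks collagen IV and singled out after its values were seen, rose by similar amounts in all 3 organs (1.46 ± 0.13, 1.45 ± 0.13 and 1.48 ± 0.13, in the order heart, kidney and tail, adjusted p at most 6.2e-07). *Loxl2*, a lysyl oxidase, rose in TFs from 224 ± 2.04 to 625 ± 244 CPM (1.48 ± 0.26, adjusted p = 0.000343), and had 0.42 in HFs and 0.16 in KFs. *Timp3*, a matrix-bound protease inhibitor, fell in KFs from 3400 ± 99.0 to 994 ± 132 CPM (-1.77 ± 0.16, adjusted p = 3.73e-07), with -0.97 ± 0.15 in HFs (adjusted p = 6.61e-05) and -0.72 ± 0.15 in TFs (adjusted p = 0.00161). *Lox* had -0.09, -0.56 and -0.77 in the heart, kidney and tail (adjusted p from 0.0863 to 0.844).

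Of the 15 receptors, 2 rose and 2 fell in HFs (18.3% and 9.33% of all genes), 3 rose and 4 fell in KFs (14.7% and 7.99%), and 1 rose and 2 fell in TFs (11.0% and 5.53%). *Itgb1*, the common beta subunit of matrix integrins, had -0.89 ± 0.10 in HFs, -0.57 ± 0.10 in KFs and -0.49 ± 0.10 in TFs, each under an adjusted p of 0.05 and short of the fold limit. *Ddr2*, a collagen receptor kinase, fell in KFs (-1.02 ± 0.19, adjusted p = 0.000459). *Sdc3*, a cell surface heparan sulfate proteoglycan, had -0.05, -0.09 and -0.29 (adjusted p from 0.0905 to 0.750). Without KFs replicate 3, the KFs counts became 2 and 2 of 11 laminins, 7 and 5 of 20 other proteins, 7 and 0 of 19 folding genes, 8 and 6 of 20 turnover genes, and 1 and 6 of 15 receptors, higher and lower, against 12.9% and 10.3% of all genes in that fit. Of the genes named for KFs, *Ddr2* was then at -0.80 ± 0.10 and short of the fold limit, *Serpinh1* (1.05 ± 0.12) and *P4hb* (1.14 ± 0.10) passed it, and *Col15a1* (3.67), *P4ha1* (1.48), *Pxdn* (1.47) and *Timp3* (-1.71) kept their calls, while *Lama4* had 1.91 ± 0.11. *Sparc* had 0.60 ± 0.13 in that fit (adjusted p = 0.0011), short of the fold limit. *Fbln2* had -0.21, *Lox* -0.18, *Loxl2* 0.37, *Lamc1* 0.18 and *Sdc3* 0.01 (adjusted p from 0.159 to 0.918).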

How the data were processed

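RNA was measured by stranded total RNA sequencing (single-end reads of 75 bases) in 18 libraries of 6 groups, taken from the sample titles. The authors trimmed the reads, aligned them with Bowtie2 within RSEM to GRCm38 according to the study's methods (the submitters' processing notes name mm9), and deposited expected counts per gene as whole numbers without normalization. The annotation release is not given in the sources used here. GENCODE release 21 gave symbols, positions and union exon lengths for 37607 identifiers, and 1317 without a symbol (0.277% of counts) stayed in the tests. A multiply mapped read is divided by RSEM between genes.

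edgeR 4.0.16 in R 4.3.3 was used for the main tests. Low genes were removed by filterByExpr, libraries were scaled by TMM, and glmQLFit and glmQLFTest were run, two-sided, on a model with a mean for each group and all 18 libraries, with Benjamini-Hochberg adjustment over 16577 genes. The SE is the size of the log2 fold change divided by the square root of F, and the biological coefficient of variation was 0.24. Patterns were compared on log2 CPM with a prior count of 2. Python 3.11.15 was used for tables and figures, with pandas 2.3.3, numpy 2.4.6 and matplotlib 3.10.9. The fit was also run on simulated data with known changes in HFs alone, with the same spread in every group and no outlying library. That run cannot show how the fit behaves with the unequal spread of these libraries.

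The text names the 9 members, the 3 genes with the highest mean CPM in each of 5 lists of partner genes, and the 3 genes most correlated with each member. *Pxdn*, *Lama1* and the single marker genes *Nphs1*, *Podxl*, *Abcc9* and *Xist* lie outside this rule and were named after their values were seen. Members and lists were chosen with earlier results of these data known. Each test was repeated with DESeq2 1.42.0, with the size factors of DESeq2 or the plain library size replacing TMM, with all genes kept, with genes of a mean of 10 counts or more, with libraries thinned to the smallest total (seed 11), with a replicate block, with the compared groups fitted alone, with another fold limit, and with each replicate left out, KFs replicate 3 also where a comparison does not hold it. Some results for single marker genes are not reported here.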

Additional observations from a re-analysis of the deposited data

Results flagged for a closer look

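The interaction terms that passed the adjusted p of 0.05 (edgeR's quasi-likelihood test, log2 scale, 3 libraries per group) mark members whose response to transplantation differed between organs. For HF against TF these were *Col4a1* (-1.82), *Col4a2* (-1.26) and *Nid1* (-0.98). For KF against TF they were *Col4a1* (-2.05), *Col4a2* (-1.90) and *Nid2* (-3.52). For HF against KF they were *Col4a2* (0.65), *Col4a5* (0.82), *Col4a6* (1.36) and *Nid2* (2.67). The *Nid2* values include KFs replicate 3, whose *Nid2* level was 11.2 CPM, and without it they were -3.06 and 2.24.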

How the results depend on the processing

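Most results kept their direction and their side of the threshold: of the log2 fold changes of members under the alternatives, 1663 did so, 52 passed the threshold only under the alternative, 79 only with the settings reported, and 27 changed sign. The changes of sign outside the leave-one-out fits were in values near 0, namely *Hspg2* in HFs against HFc (0.03 with DESeq2, with its size factors and in a fit of only these groups, 0.01 with a mean of at least 10 counts, without a filter and after thinning) and, with library size alone, the HF against KF response of *Hspg2* (-0.04) and *Col4a4* (-0.14). Leaving out 1 library at a time moved *Col4a3* and *Col4a4* across 0 in HFs against KFs (-4.49 to 0.65 and -4.07 to 0.02), in KFs against KFc (-2.40 to 2.01 and -1.59 to 2.10) and in the HF against KF response (-0.30 to 4.84 and -0.80 to 3.28). It also did so for *Col4a2* in HFs against HFc (-0.11 to 0.06), for *Nid1* in HFs against KFs (-0.32 to 0.11) and KFs against KFc (-0.09 to 0.32), and for *Hspg2* in HFs against HFc (-0.04 to 0.06), KFs against KFc (-0.23 to 0.12), TFs against TFc (-0.01 to 0.05) and the responses of HF against KF (-0.13 to 0.22), HF against TF (-0.08 to 0.03) and KF against TF (-0.24 to 0.11). The numbers of members called by leave-one-out ranged from 0 to 3 in HFs against HFc, 3 to 5 in KFs against KFc, 3 to 6 in TFs against TFc, 5 to 9 in HFc against TFc, 4 to 7 in HFc against KFc, 3 to 7 in the KF against TF response and 3 to 7 in the HF against KF response. With the adjusted p alone, 2 members were called in HFs against HFc and 5 in KFs against KFc. With a log2 fold limit of 1, 4 were called in HFc against KFc, 5 in KFs against TFs and 2 in the HF against KF response. A fit of only the groups compared called 3 in HFs against HFc, 9 in HFc against TFc, 2 in HFs against KFs and 2 in KFs against TFs, and DESeq2 called 1 in HFs against HFc. DESeq2 gave no adjusted p for *Col4a3* and *Col4a4*. The cause of these changes was not tested, except that without KFs replicate 3 the shared spread was smaller. Over all genes, the adjusted p alone gave 9353, 8091 and 6433 calls in the heart, kidney and tail transplant comparisons against 4585, 3754 and 2743, and a fit of only the groups compared gave 883 in HFs against KFs and 1137 in KFs against TFs against 5504 and 4819, and 7508 in HFc against KFc against 4833. The KF against TF response had 1835 calls, 3619 without KFs replicate 3 and 1198 without TFc replicate 3, and KFs against TFs had 3183 without TFs replicate 3. A fold limit of 1 left 2473, 3237 and 2703 calls in HFc against KFc, HFc against TFc and KFc against TFc (of 4833, 6943 and 6026), 2096, 1722 and 1971 in HFs against KFs, HFs against TFs and KFs against TFs (of 5504, 3822 and 4819), and 2176, 1876 and 980 in the HF against KF, HF against TF and KF against TF responses (of 4347, 3776 and 1835). Library size alone moved the median listed gene by -0.22 in HFs against TFs, -0.18 in HFs against KFs and -0.16 in HFc against TFc (log2). Same-numbered libraries of 2 groups had correlations of their deviations between -0.139 and 0.0792, so the numbers were not taken to pair the samples. With the replicate block, HFs against KFs had 6 members called in place of 8, with *Col4a3* and *Col4a4* at adjusted p of 0.174 and 0.0936, and the other comparisons kept their number of called members. After thinning to the smallest total, 1 member call was lost, *Col4a2* in HFc against KFc (adjusted p = 0.0558). Counts were lowest for *Col4a3* and *Col4a4*, with at most 20 per TFc library.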
